A study of Mus musculus with 9 samples.

Results

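The constitutive proteasome genes were followed in bulk RNA-seq of dissected mouse nigral tissue. The set holds the protein-coding genes whose GENCODE M21 symbol is Psma, Psmb, Psmc, Psmd, Psme, Psmf or Psmg followed by a number, without the 3 interferon-inducible catalytic subunits Psmb8, Psmb9 and Psmb10. It has 45 members among 55450 genes in the files, and 44 of them passed the filter on low counts, among 20892 genes tested. By role the members are 8 alpha and 8 beta subunits of the 20S core, 6 ATPases and 11 other subunits of the 19S particle, 3 chaperones of 19S assembly, 4 activators, 1 inhibitor and 4 chaperones of 20S assembly. The members were chosen by name, with earlier results of these data known.

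The series has 3 groups of 3 libraries, all from the substantia nigra of mice that received a Cre-inducible lentivirus there, 5 weeks before collection. CTR libraries carry the label GFP, and the study's text describes these controls as CX3CR1-CreERT2 mice with a destabilized GFP. CX3 libraries come from CX3CR1-CreERT2 mice with a Synuclein-expressing vector, where Cre acts in microglia and related myeloid cells after tamoxifen. DAT libraries come from DAT-Cre mice with the same kind of vector, where Cre follows the dopamine transporter gene of dopaminergic neurons. The methods give tamoxifen to the CX3CR1-CreERT2 line, and CTR and DAT therefore differ in mouse line and drug as well as in the protein expressed, which cannot be told apart here. The mice were males, 8 weeks old in the study's results and 9 weeks old in its methods. The number of animals behind a library is not given in the sources used here, so the p-values measure the spread between these libraries, which may be technical.

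The 26S proteasome is the main protease for proteins tagged with ubiquitin. A barrel of alpha and beta rings, the 20S core, holds the cutting sites inside, and the 19S particle at its end binds ubiquitin, removes it, unfolds the substrate and opens the gate. Other caps can replace the 19S particle, among them the PA28 ring of Psme1 and Psme2, which interferon-gamma induces together with Psmb8, Psmb9 and Psmb10. Neurons and glia both need the constitutive subunits, and impaired protein breakdown is a long-standing theme in Parkinson's disease research.

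Reads counted on genes ranged from 21592817 (DAT B) to 39475428 (DAT A), and 3 counts, the smallest signal taken as countable, equal 0.0779 to 0.151 CPM, the count of a gene divided by the library's TMM-scaled total (counting error only). Dopaminergic markers (6 genes, Th and Slc6a3 among them) summed to 407 to 411 CPM in CTR, 586 to 594 in CX3 and 346 to 350.3 in DAT, so dopaminergic transcripts were detected in every library. Marker levels of several cell types moved with the groups. Microglial markers (7 genes) summed to 709.9 to 718 CPM in CTR, 469 to 478 in CX3 and 462 to 473 in DAT, and neuronal markers (6 genes) to 3160 to 3173, 3564 to 3601 and 4594 to 4680. T cell markers (5 genes) summed to 40.4 to 41.8, 33.6 to 35.9 and 9.17 to 10.5 CPM, and those of B and plasma cells (4 genes) to 650.02 to 684, 149.5 to 158 and 52.3 to 58.1. Choroid plexus markers (4 genes), which mark tissue outside the nigra, summed to 26.2 to 28.1, 1445 to 1553 and 826 to 1001 CPM, oligodendrocyte markers (5 genes) to 19116 to 19192, 20420 to 20802 and 13571 to 14395, and astrocyte markers (5 genes) to 4213 to 4245, 2268 to 2374 and 2413 to 2487. Endothelial markers (4 genes) summed to 165 to 168, 244 to 249 and 275 to 280.2 CPM. Pituitary markers (4 genes) summed to 57.5 to 60.1, 2.97 to 3.09 and 15.1 to 20.97, and those of cerebellar granule cells (4 genes) to 2.99 to 3.17, 4.06 to 4.13 and 14.7 to 19.1 CPM. In such bulk samples, a change in the number of cells of a type and a change in RNA per cell cannot be told apart, and the part of these markers in the proteasome values was not tested.

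Library DAT B stood apart from DAT A and DAT C, and this touches the short transcripts of most subunits. Over protein-coding genes with a mean of at least 10 CPM, the median log2 difference between DAT B and the mean of DAT A and C went from 0.37 for genes with a longest transcript of up to 1000 bases to -0.26 for those over 8000 bases. Of the 44 tested members, 28 have transcripts of up to 2000 bases. The share of all gene-counted reads that fell on the members was 0.351% and 0.358% in DAT A and DAT C and 0.419% in DAT B, beside 0.402% to 0.410% in CTR and 0.416% to 0.445% in CX3. CX3 A leaned the same way by less, with medians from 0.11 to -0.17 against CX3 B and C over the same length classes. Calls among the members are therefore counted with it and without it. Single values without it are given for many genes but not for all. Unless an alternative is named, calls in the 9 libraries are those of the TMM-scaled fit.

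**Figure D1:**
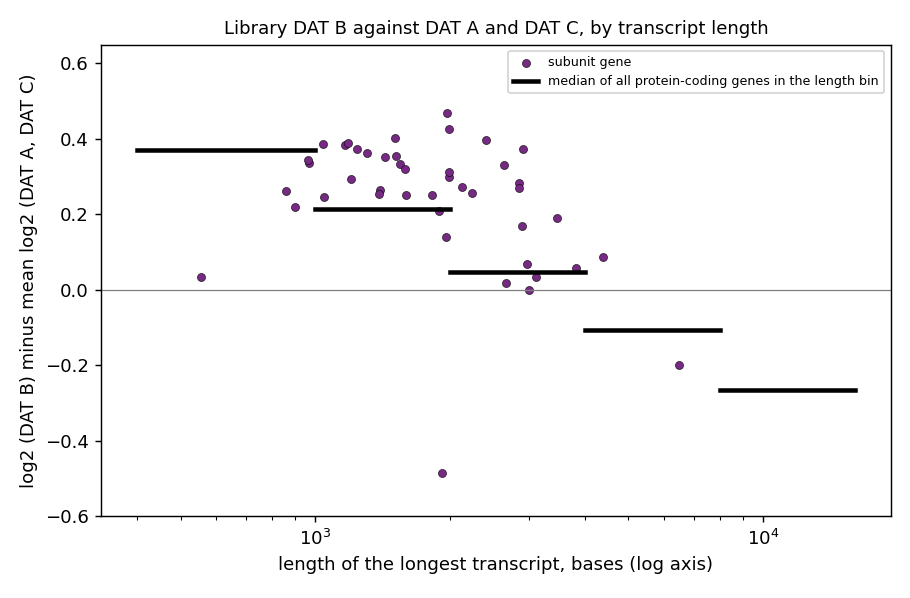
Points show, for each tested subunit gene, log2 CPM in DAT B minus the mean of DAT A and DAT C (vertical axis) against the length of its longest transcript (horizontal axis, log scale), and black lines show the median of all protein-coding genes in each length class. Most subunit genes lie above 0, and the class medians fall from 0.37 to -0.26 with length.

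The subunit transcripts were not at equal levels. Levels of different genes are compared here only as RPKM, which is CPM per kilobase of exon, given as mean ± SD of 3 libraries. In CTR the median of the 44 members was 31.5 RPKM. Psmc5, a 19S ATPase, was at the top with 155 ± 1.26, followed by the ATPase Psmc1 with 116 ± 1.78 and the core subunits Psmb4 with 86.7 ± 3.81 and Psma6 with 84.6 ± 2.28. Psmc5 and Psmc1 held the first and the second place in all 3 groups. The beta subunits spanned 22.8 to 86.7 RPKM in CTR, and the ATPases 24.8 to 155. At the low end stood the inhibitor Psmf1 with 4.82 ± 0.0938, the assembly chaperones Psmd9 with 3.89 ± 0.116 and Psmg3 with 1.35 ± 0.0537, and Psma8, an alpha subunit of the testis, with 0.342 ± 0.103. In this order, 15 of the 43 pairs of neighbours had overlapping ranges of mean ± 1 SD and are not ranked between themselves. The median member level was 34.2 RPKM in CX3 and 28.5 in DAT, and these values depend on the length used, as the longest transcript in place of all exons gave 47.0, 48.5 and 48.5 RPKM in CTR, CX3 and DAT.

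**Figure D2:**
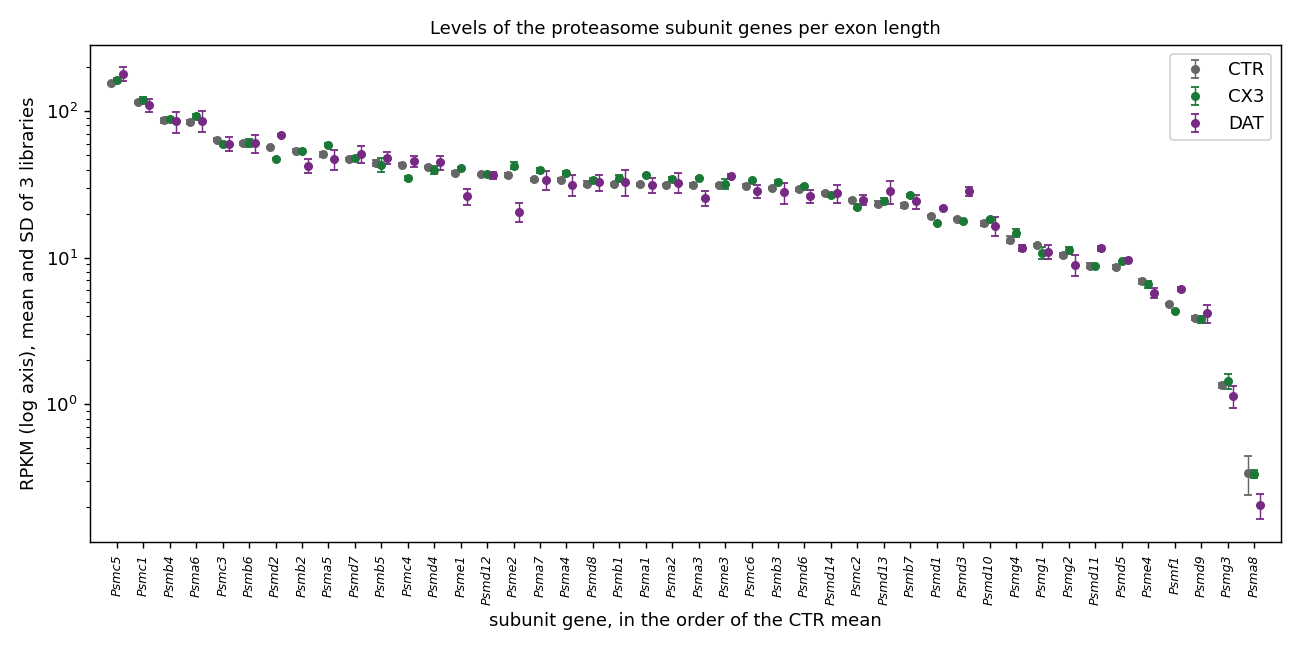
Mean RPKM with SD over 3 libraries (vertical axis, log scale) of the 44 tested subunit genes, ordered by their mean in CTR, for CTR, CX3 and DAT. In CTR the levels run from 0.342 RPKM for Psma8 to 155 RPKM for Psmc5, which is at the top in all 3 groups.

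Psmb11, the thymus-specific beta subunit, was the only member that did not pass the filter, with 4, 9 and 7 reads in CTR, 1, 4 and 8 in CX3 and 5, 3 and 2 in DAT. Psma8 passed with 1.08, 0.577 and 0.900 CPM in CTR, 0.779, 0.866 and 0.859 in CX3 and 0.603, 0.402 and 0.527 in DAT, all below 2 CPM, and its log2 fold change of -0.67 (adjusted p = 0.061) for DAT against CTR by edgeR's quasi-likelihood test did not pass the threshold. Reads of 6 further members are the most uncertain because stretches of 76 bases, the read length, occur in other annotated genes: 36.1% of those of Psmb5 (Gm3375 and Mir686), 34.6% of Psma5, 24.3% of Psmd9 (the antisense gene Gm26745), 22.7% of Psme2 (Psme2b), 14.3% of Psma3 and 10.04% of Psmb3. Exons of Psmb7 and Psmd13 overlap those of Nek6 and Sirt3 on the other strand over 11.8% and 10.1% of their length, and the counts of both strands together do not separate them.

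Promoter windows of 300 bases, from 250 before to 50 after a transcription start (RefSeq, build GRCm38.p6), were found for 37 of the 45 members, as 40 windows. No window was found for Psma8, Psmb1, Psmb2, Psmb7, Psmc3, Psmd3, Psmd7 and Psmg2. The 6 windows below belong to the genes that the results turn on: the PA28 pair, a 19S subunit and an ATPase that moved, and 2 catalytic subunits. Capitals mark each match to 1 of 5 motifs, read on both strands.
Psme1 (chr14:55578244-55578543, plus strand): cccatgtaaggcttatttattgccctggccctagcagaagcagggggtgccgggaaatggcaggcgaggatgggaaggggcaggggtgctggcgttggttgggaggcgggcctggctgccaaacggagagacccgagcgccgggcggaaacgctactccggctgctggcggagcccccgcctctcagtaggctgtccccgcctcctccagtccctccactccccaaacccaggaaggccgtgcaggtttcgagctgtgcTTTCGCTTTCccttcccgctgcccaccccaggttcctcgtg
Psme2 (chr14:55591052-55591351, minus strand): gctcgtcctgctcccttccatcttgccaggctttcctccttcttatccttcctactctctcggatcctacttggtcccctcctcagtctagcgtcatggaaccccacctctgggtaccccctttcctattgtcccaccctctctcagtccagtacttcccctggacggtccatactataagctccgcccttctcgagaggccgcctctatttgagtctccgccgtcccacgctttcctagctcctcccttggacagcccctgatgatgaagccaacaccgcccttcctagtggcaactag
Psmd2 (chr16:20651402-20651701, plus strand): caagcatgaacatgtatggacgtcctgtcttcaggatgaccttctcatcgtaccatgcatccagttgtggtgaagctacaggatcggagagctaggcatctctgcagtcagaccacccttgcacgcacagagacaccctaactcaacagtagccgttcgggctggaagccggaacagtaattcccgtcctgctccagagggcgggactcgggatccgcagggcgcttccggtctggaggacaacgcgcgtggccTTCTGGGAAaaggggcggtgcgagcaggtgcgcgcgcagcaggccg
Psmc4 (chr7:28050043-28050342, minus strand): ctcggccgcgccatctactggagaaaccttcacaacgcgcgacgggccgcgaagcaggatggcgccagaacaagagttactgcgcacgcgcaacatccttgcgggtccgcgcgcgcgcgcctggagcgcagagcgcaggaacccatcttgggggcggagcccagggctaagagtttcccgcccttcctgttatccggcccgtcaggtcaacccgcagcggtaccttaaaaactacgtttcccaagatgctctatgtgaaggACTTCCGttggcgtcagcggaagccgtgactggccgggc
Psmb5 (chr14:54617946-54618245, minus strand): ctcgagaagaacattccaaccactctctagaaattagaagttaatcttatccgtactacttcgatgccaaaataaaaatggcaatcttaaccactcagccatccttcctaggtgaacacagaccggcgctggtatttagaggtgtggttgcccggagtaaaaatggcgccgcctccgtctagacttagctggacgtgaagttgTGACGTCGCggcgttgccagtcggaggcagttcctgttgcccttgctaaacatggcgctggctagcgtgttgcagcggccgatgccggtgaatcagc
Psmb6 (chr11:70525107-70525406, plus strand): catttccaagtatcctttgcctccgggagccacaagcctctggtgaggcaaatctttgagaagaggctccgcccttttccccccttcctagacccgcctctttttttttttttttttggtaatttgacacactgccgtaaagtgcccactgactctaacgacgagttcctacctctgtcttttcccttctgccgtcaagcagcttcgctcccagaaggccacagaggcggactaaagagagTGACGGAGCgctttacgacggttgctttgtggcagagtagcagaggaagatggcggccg
The window of Psme1 holds the interferon-stimulated response element (GAAA, any 2 bases, GAAA) on the opposite strand, 9 bases after the start, a motif of 5 of the 40 member windows (12.5%) and of 3.44% of all 32851 windows. Psmd2 holds TTCNNNGAA, the interferon-gamma activated site, 4 bases after the start, found in 2 member windows (5.0%) and in 8.30% of all. Psmb5 and Psmb6 hold TGACNNNGC, the core of the antioxidant response element that Nfe2l1 and Nfe2l2 bind, in 6 member windows (15.0%) and 12.4% of all. Psmc4 holds CGGAAGT, an ETS-type site, found in 15 of 40 member windows (37.5%) and in 6.42% of all, and the box CCAAT occurred in 13 member windows (32.5%) and in 37.4% of all. The window of Psme2 holds none of the 5, a second, overlapping window of Psme2 is not shown, and none of the matches shown overlaps another. A match describes the letters and is not a bound site.

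Across the 3 comparisons, most members differed by little, and the PA28 pair and a few 19S subunits by most. In CX3 against CTR, 8 of 44 members were called by edgeR's quasi-likelihood test at an adjusted p below 0.05 (Benjamini-Hochberg over all genes tested), beside 30.5% of all genes tested. Of these, 4 rose (Psmb7, Psma5, Psma1 and Psmd5), beside 14.0% of all genes, and 4 fell (Psmc4, Psmd2, Psmd1 and Psmf1), beside 16.5%. The median log2 fold change of the members was 0.054, beside -0.003 for all genes tested, and the range ran from -0.30 to 0.23. All 3 CX3 libraries lay above all 3 CTR libraries for 17 members and below them for 8, beside 23.9% and 25.4% of all genes. The spread that the test uses is shared by the 9 libraries, and without DAT B the same comparison called 15 members higher and 6 lower (21 calls beside 39.6%), beside 19.4% and 20.2% of all genes, with a median of 0.062. Leaving out any 1 of the 6 CTR and CX3 libraries left 3 to 5 calls, beside 4638 to 5685 among all genes. Psmc4, Psmd2 and Psmd1 were called lower each time, whereas Psma1, Psma5 and Psmd5 lost their calls each time. With all 9 libraries, the calls at a fold of at least 1.2 were 1 (Psmc4), and glmTreat, edgeR's test against that fold, called 0 members, also at an unadjusted p below 0.05, beside 8.44% of all genes, while DESeq2 called 11, beside 27.9%, and the length offset described below 16, beside 38.0%.

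In DAT against CTR, 16 of 44 members were called, beside 59.9% of all genes tested. Psmd3, Psmd11, Psmf1, Psmd13, Psmd2, Psmc5, Psme3, Psmd1 and Psmd5 rose, which are 9 members beside 32.0% of all genes, and Psme2, Psme1, Psmb2, Psma3, Psme4, Psmg2 and Psmd6 fell, 7 members beside 27.9%. The median log2 fold change was -0.013, beside -0.004 for all genes, with a range from -0.85 to 0.62. Without DAT B the same 9 members rose and 23 fell, beside 31.5% and 30.2% of all genes, and the median was -0.13 (32 calls beside 61.7%). Of these 23, 19 have transcripts of up to 2000 bases, against 5 of the 7 called with DAT B. The comparison itself ran with transcript length over protein-coding genes with a mean of at least 10 CPM. Its median log2 fold change went from -0.16 for transcripts of up to 1000 bases to 0.23 for those over 8000 bases. Without DAT B it went from -0.31 to 0.30, so leaving out DAT B did not remove this trend. All DAT libraries lay above all CTR libraries for 9 members and below them for 6, beside 33.5% and 30.6% of all genes, and without DAT B for 9 and 27, beside 37.8% and 37.5%. DESeq2 called 17 members, beside 57.4% of all genes, and glmTreat 4 (Psmd3 and Psmd11 higher, Psme1 and Psme2 lower), beside 39.4%. Scaling by library size alone gave 4 members higher and 21 lower with a median of -0.16. It also moved the median of all genes to -0.15 and called 4890 of all 20892 genes higher and 8045 lower. An offset that takes each library's trend with transcript length out of the fit gave 7 members higher and 17 lower. This alternative was added after the data were seen. It called 5337 of all 20892 genes higher and 7698 lower, 62.4% in all. Psme1, Psme2, Psmd3 and Psmd11 kept both their direction and their call under all 20 alternatives run.

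In CX3 against DAT, which shares its libraries with both comparisons above, 24 of 44 members were called, beside 58.9% of all genes tested. Of these, 15 members were higher in CX3 and 9 lower, beside 27.6% and 31.3% of all genes, with a median of 0.068 beside 0.010 for all genes. The 7 called members of the 20S core were all higher in CX3, while 7 of the 9 called members of the 19S base and lid were lower there. Without DAT B, 25 were higher and 7 lower, beside 30.3% and 30.8% of all genes, with a median of 0.19 (32 calls beside 61.1%), where the 13 called core members were all higher but the 10 called members of the 19S base and lid split into 5 higher and 5 lower. With the length offset, 11 called core members were higher and 2 lower (Psmb5 and Psmb6). Of the 19S base and lid, 5 were higher and 6 lower. The offset called 7829 of all 20892 genes higher and 5468 lower in this comparison. Over protein-coding genes, the median of this comparison fell from 0.23 for transcripts of up to 1000 bases to -0.29 for those over 8000 bases. Without DAT B it fell from 0.37 to -0.34. All CX3 libraries lay above all DAT libraries for 12 members and below them for 7, beside 28.8% and 32.2% of all genes, and without DAT B for 28 and 7, beside 36.4% and 36.7%. DESeq2 called 24 members, beside 56.4%, glmTreat 9, beside 38.2%, and the length offset 32, beside 63.6%.

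**Figure D3:**
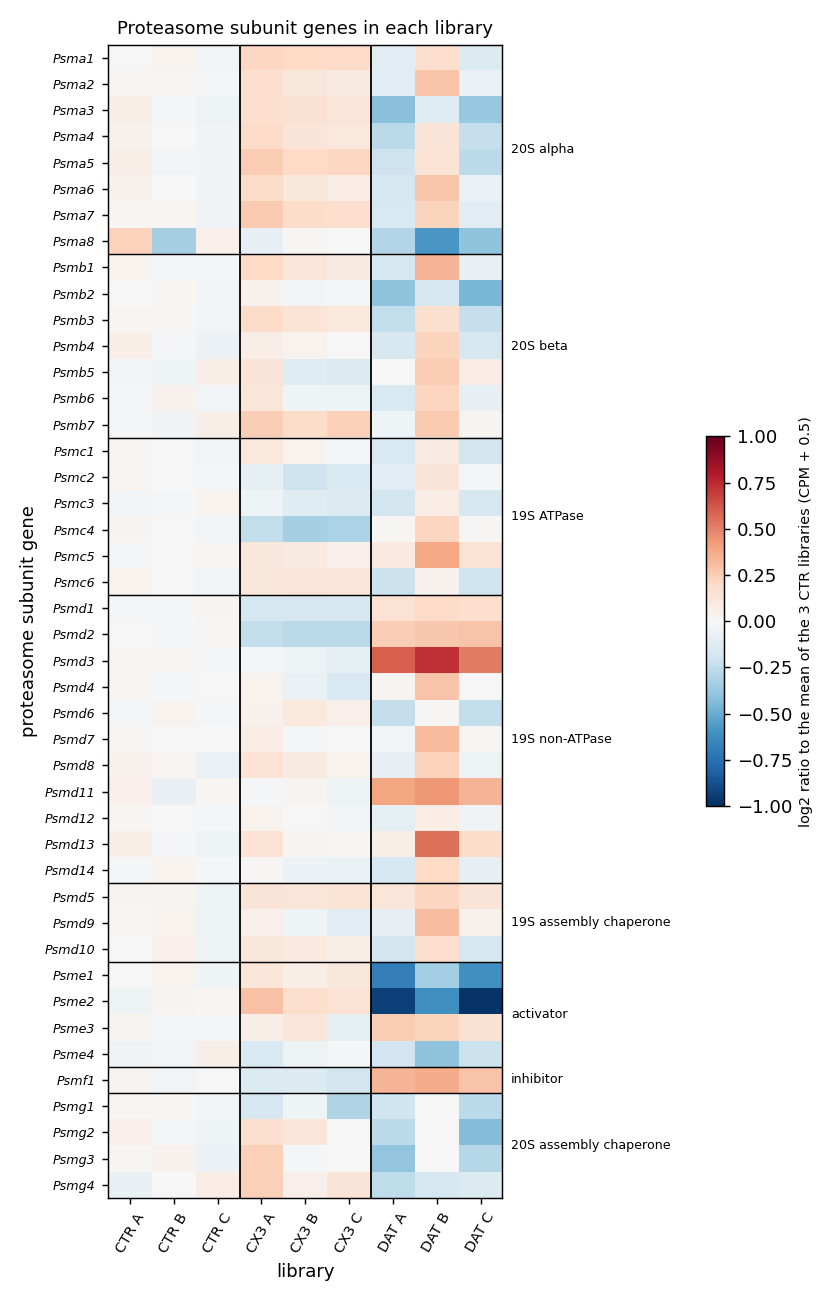
Each row is a tested subunit gene, ordered by class, each column a library, and the color gives the log2 ratio of its CPM (plus 0.5) to the mean of the 3 CTR libraries. Psme1 and Psme2 are lower and Psmd3, Psmd11 and Psmf1 higher in the 3 DAT libraries than in CTR, and DAT B is higher than DAT A and DAT C for most genes.

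**Figure D4:**
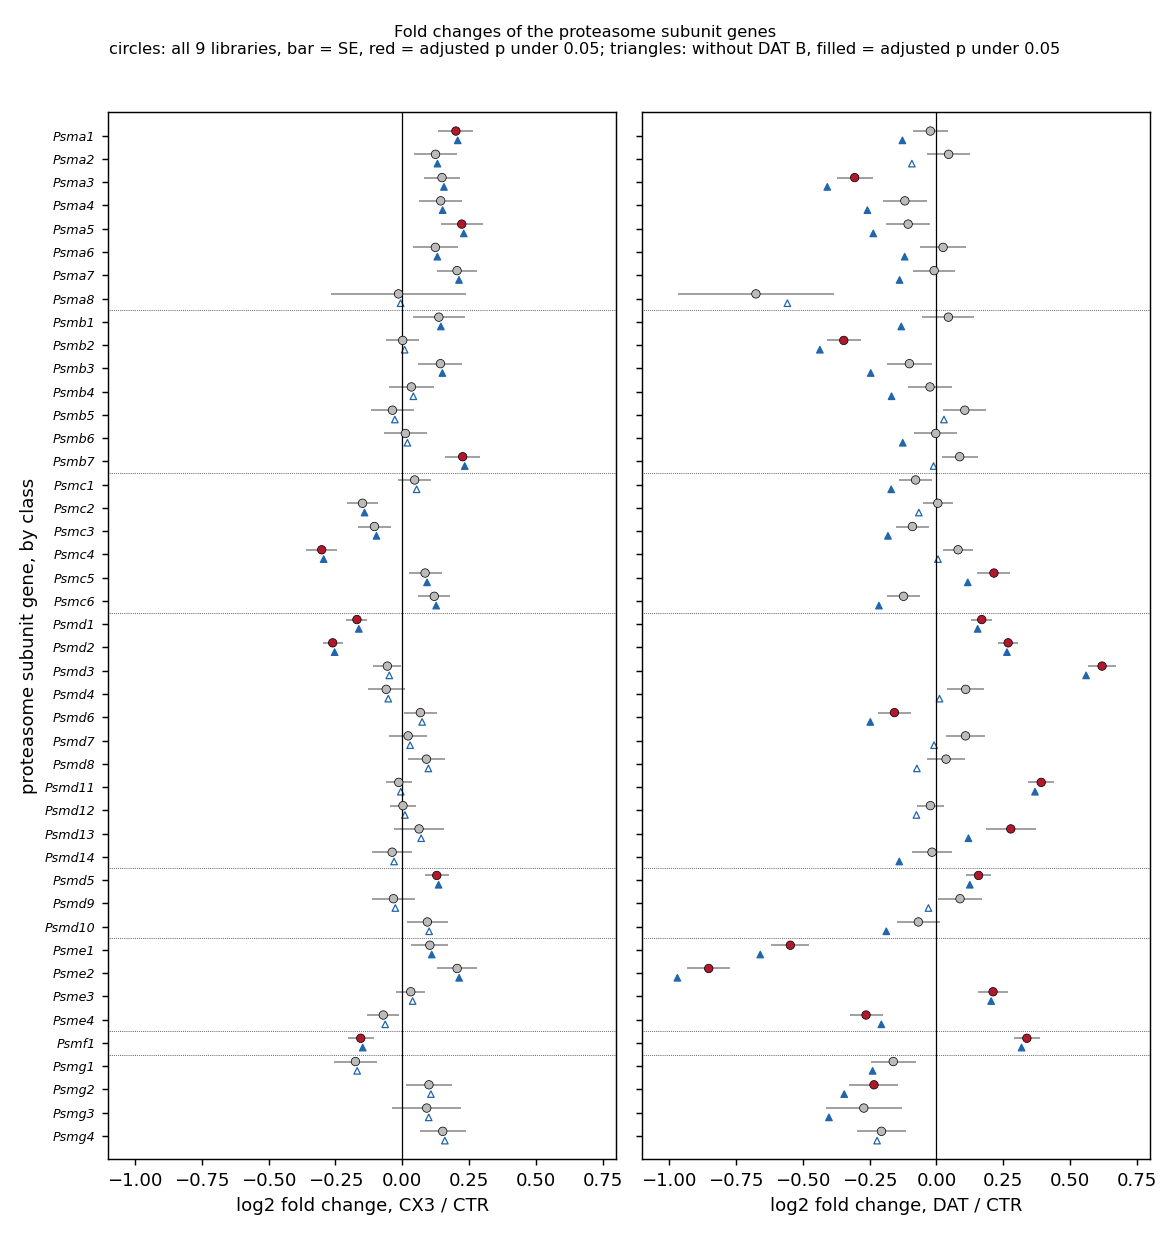
The log2 fold change of each tested subunit gene in CX3 against CTR (left) and DAT against CTR (right). Circles with SE bars use all 9 libraries and are red at an adjusted p below 0.05, and triangles leave out DAT B and are filled at an adjusted p below 0.05. In the right panel most triangles lie left of their circles, with Psme2 lowest at -0.85 and Psmd3 highest at 0.62 in the fit of 9.

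Psme2 showed the largest difference of the set, in DAT. Per-library values are given in the order A, B and C of each group. Psme2 encodes PA28 beta and had 62.8, 66.2 and 65.98 CPM in CTR, 79.5, 73.3 and 71.9 in CX3 and 33.8, 42.2 and 32.6 in DAT. Its 3 DAT libraries lay below the other 6 and its 3 CX3 libraries above the 3 of CTR. The log2 fold change of DAT against CTR was -0.85 ± 0.080 (SE, adjusted p = 4.8e-07), and -0.97 ± 0.055 (SE, adjusted p = 1.3e-13) without DAT B. In CX3 against CTR it was 0.20 ± 0.075 (SE, adjusted p = 0.053), short of the threshold, and 0.21 ± 0.044 (SE, adjusted p = 4.0e-04) without DAT B, where it passed. Psme1, its partner PA28 alpha, had 84.2, 86.6 and 81.9 CPM in CTR, 91.8, 88.4 and 91.2 in CX3 and 52.3, 66.5 and 54.9 in DAT, in the same order of groups and with no overlap between them. It fell, with a log2 fold change of -0.55 ± 0.071 (SE, adjusted p = 1.4e-05) in DAT and, without DAT B, of -0.66 ± 0.044 (SE, adjusted p = 2.5e-12). The genes are neighbours on chromosome 14 in mm10 (GRCm38), Psme1 at 55578123 to 55581529 on the plus strand and Psme2 at 55587441 to 55591113 on the minus strand.

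The other activators and the inhibitor moved in different directions. Psme3, the PA28 gamma ring of the nucleus, had 94.1, 91.4 and 91.2 CPM in CTR, 96.02, 100.1 and 86.7 in CX3 and 109.96, 108 and 103 in DAT, and all 3 DAT libraries lay above the other 6. Its log2 fold change in DAT was 0.21 ± 0.055 (SE, adjusted p = 0.0042), and 0.20 ± 0.052 (SE, adjusted p = 0.0014) without DAT B, but with library size alone it was 0.064 and not called. Psme4 encodes PA200, a single-chain activator with the longest transcript of the set, and had 56.7, 56.8 and 60.3 CPM in CTR, 52.1, 55.8 and 57.6 in CX3 and 50.8, 43.8 and 49.7 in DAT. Here DAT lay below CTR, with -0.26 ± 0.062 (SE, adjusted p = 0.0021) in all libraries and -0.21 ± 0.049 (SE, adjusted p = 7.7e-04) without DAT B, which was the lowest of the 3. Psmf1 encodes PI31, an inhibitor of the isolated 20S core, and had 31.6, 30.4 and 31.2 CPM in CTR, 28.1, 28.2 and 27.3 in CX3 and 39.4, 40.3 and 38.05 in DAT, so that CX3, CTR and DAT stood in this rising order without overlap. It rose in DAT with 0.34 ± 0.049 (SE, adjusted p = 3.7e-05) and fell in CX3 with -0.16 ± 0.049 (SE, adjusted p = 0.027), and both calls held without DAT B at 0.32 and -0.15, while the fall in CX3 was lost when any CTR library, CX3 B or CX3 C was left out.

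For comparison with the PA28 pair, the inducible catalytic subunits were read from the same libraries. Psmb9 had 37.7, 39.7 and 35.7 CPM in CTR, 60.2, 54.4 and 53.9 in CX3 and 9.21, 10.5 and 9.48 in DAT, with no overlap between any pair of groups. Psmb8 had 37.6, 37.1 and 35.4 CPM in CTR, 50.3, 46.6 and 46.1 in CX3 and 8.94, 10.9 and 10.7 in DAT. Psmb10 had 73.4, 75.3 and 72.7 CPM in CTR, 97.5, 91.8 and 88.02 in CX3 and 44.5, 60.6 and 45.2 in DAT. Both kept the order of Psmb9, with CX3 above CTR and DAT below it in every library. All 3 rose in CX3 against CTR, by log2 0.57 (adjusted p = 8.4e-06), 0.38 (adjusted p = 4.1e-04) and 0.32 (adjusted p = 0.012), and fell in DAT, with a log2 fold change of -1.96 (adjusted p = 4.7e-11), -1.87 (adjusted p = 9.2e-11) and -0.57 (adjusted p = 9.6e-05), and the call of Psmb10 in CX3 was lost without CTR C. Without DAT B, all 3 were again called lower in DAT, with log2 fold changes from -2.02 to -0.72 (Psmb10). Of 13 other interferon-induced genes, among them the guanosine triphosphatases Igtp, Irgm1, Iigp1 and Gbp2 and the peptide transporters Tap1 and Tap2, 10 rose and none fell in CX3, and all 13 fell in DAT, with medians of 0.43 and -1.94. Without DAT B, 11 were called higher and 1 (B2m, -0.082) lower in CX3, beside 19.4% and 20.2% of all genes. Among all genes tested with DAT B, 14.0% rose in CX3 and 27.9% fell in DAT. Iigp1 fell most, with a log2 fold change of -2.58 ± 0.052 (SE, adjusted p = 7.3e-14), and had 153, 154 and 154 CPM in CTR, 255, 272 and 281 in CX3 and 25.6, 24.8 and 26.7 in DAT. The T cell and B cell marker sums above were lowest in DAT as well. In CX3, where most of these interferon-induced genes rose, both sums lay below those of CTR. The microglial sums of CX3 and DAT overlapped, but their single markers did not move together. Of these 7 markers, 4 were called higher and 2 lower in CX3 than in DAT, with log2 fold changes from -0.90 to 1.42. The part of these cells in the values was not tested.

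The 3 constitutive catalytic subunits, which the inducible ones replace, lay near the control level. Psmb5, with chymotrypsin-like activity, had 39.1, 38.6 and 41.8 CPM in CTR, 43.6, 36.6 and 36.2 in CX3 and 39.7, 47.5 and 42.00 in DAT. Psmb6, with caspase-like activity, had 111, 116 and 111 CPM in CTR, 123, 109 and 109 in CX3 and 102, 131 and 106 in DAT. Psmb7, with trypsin-like activity, had 76.8, 76.01 and 80.98 CPM in CTR, 92.6, 88.7 and 91.98 in CX3 and 75.7, 93.6 and 79.6 in DAT. Their groups overlapped except for Psmb7 in CX3, where all 3 libraries lay above CTR. Psmb7 rose there by 0.23 ± 0.066 (SE, adjusted p = 0.019), and 0.23 ± 0.037 (SE, adjusted p = 2.0e-05) without DAT B, and the call was lost when CTR A, CTR B, CX3 A or CX3 C was left out. In the TMM-scaled quasi-likelihood fit of the 9 libraries, no other contrast against CTR was called for them. Psmb5 had -0.037 (adjusted p = 0.76) in CX3 and 0.11 (adjusted p = 0.27) in DAT. Psmb6 had 0.011 (adjusted p = 0.93) in CX3 and -0.003 (adjusted p = 0.98) in DAT, and Psmb7 had 0.087 (adjusted p = 0.28) in DAT. With the length offset, Psmb5 was called higher in DAT at 0.22. Without DAT B, Psmb6 was -0.13 in DAT and called lower. Per exon length, Psmb9 amounted to 17.1% ± 0.542 of Psmb6 in CTR, 25.2% ± 0.185 in CX3 and 4.43% ± 0.291 in DAT (SD, 3 libraries each). Psmb8 amounted to 24.5% ± 1.77, 32.8% ± 1.84 and 6.27% ± 0.415 of Psmb5, and Psmb10 to 190.3% ± 9.39, 204% ± 10.3 and 121% ± 8.35 of Psmb7 on this scale, which depends on the exon length used for each gene. For Psmb8 and Psmb9 no libraries of different groups overlapped, and each exact permutation test gave a two-sided p of 0.1, the smallest that 3 against 3 allows, so that p below 0.05 was out of reach. The Psmb10 ratios of CX3 and CTR overlapped (p = 0.2 by the same exact permutation test).

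**Figure D5:**
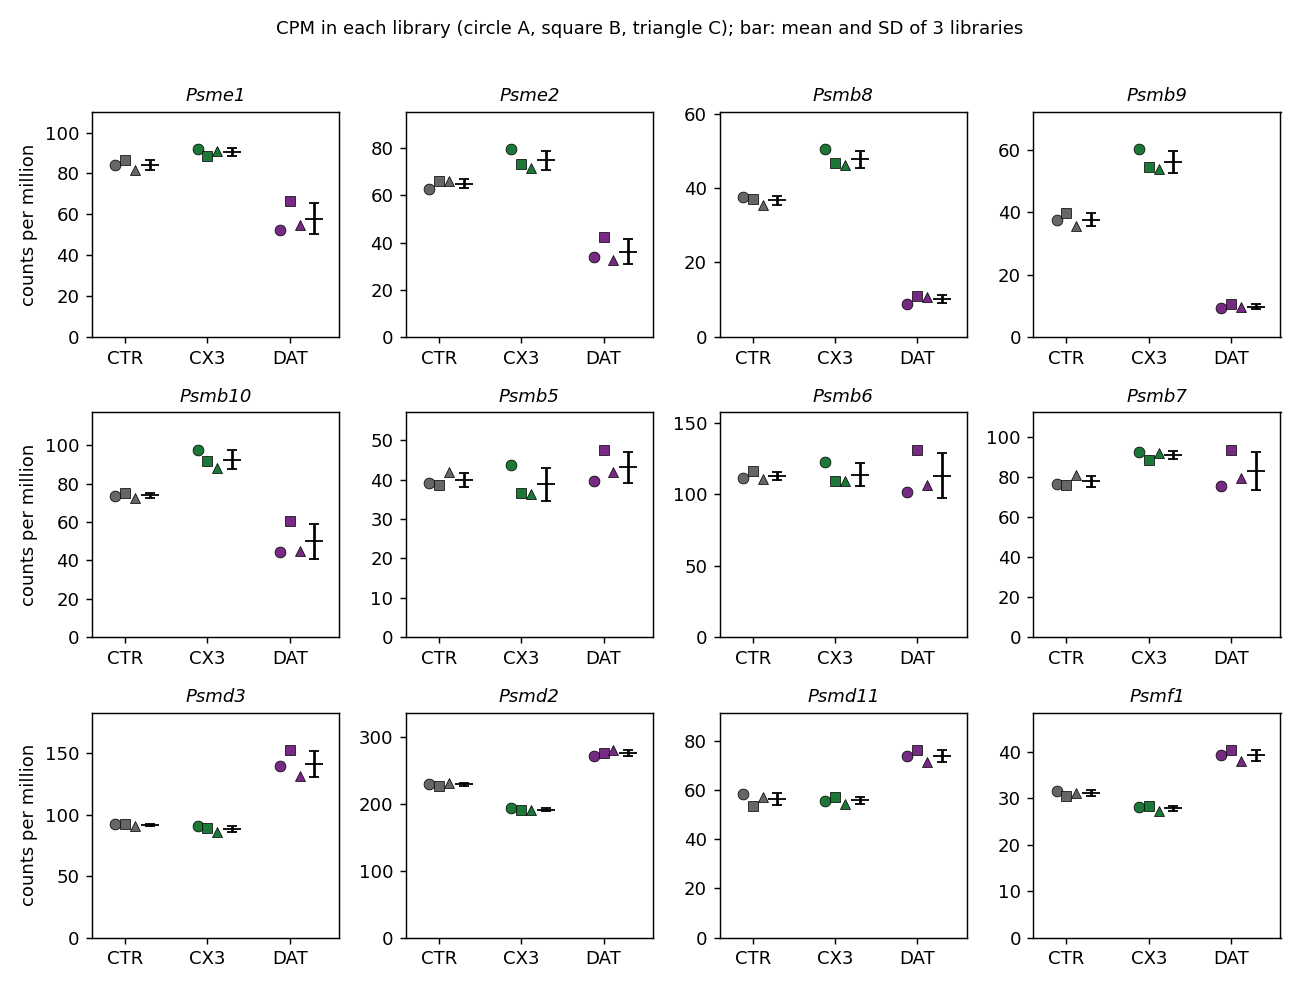
CPM of 12 genes in each library (circle A, square B, triangle C), with the mean and SD of the 3 libraries of a group beside the points, and each vertical axis starting at 0. Psme1, Psme2, Psmb8, Psmb9 and Psmb10 are lowest in DAT, the groups of the constitutive Psmb5, Psmb6 and Psmb7 overlap except for Psmb7 in CX3 against CTR, and Psmd2, Psmd3, Psmd11 and Psmf1 are highest in DAT.

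Among the other beta subunits, Psmb2 fell in DAT. It had 65.1, 65.9 and 63.6 CPM in CTR, 66.7, 63.8 and 64.3 in CX3 and 48.9, 57.5 and 47.1 in DAT, and the DAT libraries lay below the other 6. The log2 fold change was -0.35 ± 0.064 (SE, adjusted p = 3.3e-04), and -0.44 ± 0.047 (SE, adjusted p = 1.3e-08) without DAT B, while CX3 against CTR stood at 0.001 (adjusted p = 0.99). Psmb1, Psmb3 and Psmb4 were not called against CTR in the 9 libraries, with log2 fold changes between 0.034 and 0.14 in CX3 and between -0.10 and 0.044 in DAT. DAT B was the highest DAT library for each of the 3. Without it all 3 were called lower in DAT (-0.13, -0.25 and -0.17), beside 30.2% of all genes.

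The alpha ring forms the gate of the core. For 7 of its 8 genes, all but Psma8, each CX3 library lay above each CTR library, beside 23.9% of all genes, and the median log2 fold change of the class was 0.15. Psma5 and Psma1 were called, beside 14.0% of all genes called higher. Psma5 had 69.95, 65.95 and 65.3 CPM in CTR, 80.02, 77.2 and 77.4 in CX3 and 58.2, 73.7 and 55.7 in DAT, with a log2 fold change of 0.22 ± 0.079 (SE, adjusted p = 0.048), and without DAT B 0.23 ± 0.040 (SE, adjusted p = 5.7e-05). Psma1, named here for its call, rose by 0.20 ± 0.066 (SE, adjusted p = 0.033), a call that was lost when any CTR or CX3 library was left out, as was that of Psma5. Without DAT B, 7 of the 8 were called higher, beside 19.4% of all genes, with values from 0.13 (Psma6) to 0.23 (Psma5). In DAT, Psma3 was the only called member of the ring, with 127, 121 and 118 CPM in CTR, 138, 136 and 133 in CX3 and 91.3, 113 and 93.7 in DAT. Its DAT libraries lay below all others, and it fell, with a log2 fold change of -0.31 ± 0.067 (SE, adjusted p = 0.0013), and -0.41 ± 0.041 (SE, adjusted p = 5.4e-09) without DAT B, in a gene whose reads are partly shared with 3 other annotated genes. Psma2, the highest of the class in DAT, had 116, 116 and 114 CPM in CTR, 130.5, 125 and 123 in CX3 and 108, 141 and 110.5 in DAT, where DAT B lay above and DAT A and C below the CTR libraries, with a log2 fold change of 0.045 (adjusted p = 0.64). Psma1, Psma4, Psma5, Psma6 and Psma7 were not called in DAT with the 9 libraries, where Psma5 had -0.11 (adjusted p = 0.28). Without DAT B all 5 were called lower (-0.13, -0.26, -0.24, -0.12 and -0.14), beside 30.2% of all genes.

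The 6 ATPases form the ring that unfolds the substrate, and its members moved in different directions. Psmc4 had 95.01, 93.8 and 91.4 CPM in CTR, 78.6, 73.9 and 74.9 in CX3 and 94.03, 109 and 94.1 in DAT, with all CX3 libraries below CTR and DAT. Its log2 fold change was -0.30 ± 0.057 (SE, adjusted p = 0.0012) in CX3, the only call of this comparison with a fold of at least 1.2, and -0.29 ± 0.037 (SE, adjusted p = 7.4e-07) without DAT B. Psmc5, at the top in level, had 214, 216 and 217 CPM in CTR, 234, 229 and 224 in CX3 and 231, 282 and 239 in DAT. All CX3 and DAT libraries lay above CTR, and it rose in DAT by 0.21 ± 0.062 (SE, adjusted p = 0.0082), or 0.12 ± 0.035 (SE, adjusted p = 0.0061) without DAT B, but with library size alone it was 0.068 and not called. Psmc6 had 111, 108 and 107 CPM in CTR, 118, 118 and 118 in CX3 and 93.3, 112 and 94.2 in DAT, and its log2 fold changes of 0.12 (adjusted p = 0.16) in CX3 and -0.12 (adjusted p = 0.098) in DAT were not called, while the difference between CX3 and DAT was, at 0.24 ± 0.061 (SE, adjusted p = 0.0034). Psmc1, Psmc2 and Psmc3 were not called against CTR and ranged from -0.15 to 0.046 in CX3 and from -0.090 to 0.005 in DAT. Without DAT B, Psmc2 and Psmc3 were called lower and Psmc5 and Psmc6 higher in CX3 (-0.14, -0.097, 0.092 and 0.13), and Psmc1, Psmc3 and Psmc6 lower in DAT (-0.17, -0.18 and -0.22).

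Of the 11 other subunits of the 19S particle, which form its lid and scaffold and bind ubiquitin, 5 rose and 1 fell in DAT, with a median log2 fold change of 0.11, and 2 fell in CX3, read against 32.0% higher and 27.9% lower among all genes in DAT and 16.5% lower in CX3. Without DAT B, 5 were called higher and 2 lower in DAT, beside 31.5% and 30.2% of all genes, and the median was 0.011. With library size alone, 3 rose and 2 fell in DAT, where 4890 of all 20892 genes rose and 8045 fell. Psmd3, a lid scaffold, had 92.5, 92.4 and 90.8 CPM in CTR, 90.5, 88.9 and 85.8 in CX3 and 139, 152 and 132 in DAT, and the DAT libraries lay above all others. Its log2 fold change of 0.62 ± 0.053 (SE, adjusted p = 1.9e-07) was the largest rise of the set, and it was 0.56 ± 0.042 (SE, adjusted p = 2.0e-11) without DAT B. In CX3 against CTR it was -0.056 (adjusted p = 0.46). Psmd11, the lid subunit whose level limits 26S assembly in some stem cells, had 58.4, 53.6 and 57.1 CPM in CTR, 55.7, 57.3 and 54.5 in CX3 and 74.1, 76.2 and 71.4 in DAT. It rose in DAT by 0.39 ± 0.049 (SE, adjusted p = 9.8e-06), with 0.37 without DAT B, and CX3 and CTR overlapped.

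Psmd1 and Psmd2, the large scaffold proteins of the base on which ubiquitin receptors dock, were called in both comparisons in opposite directions. Psmd2 had 230.2, 228 and 232 CPM in CTR, 194, 191 and 191 in CX3 and 273, 277 and 281 in DAT. Psmd1 had 139, 139 and 144 CPM in CTR, 124, 125 and 126 in CX3 and 156, 161 and 158 in DAT. For both, every CX3 library lay below and every DAT library above every CTR library. Psmd2 fell, with a log2 fold change of -0.26 ± 0.037 (SE, adjusted p = 1.3e-04) in CX3 and rose by 0.27 ± 0.037 (SE, adjusted p = 2.5e-05) in DAT, and its difference between CX3 and DAT was -0.53 ± 0.037 (SE, adjusted p = 2.8e-08). Psmd1 gave -0.17 ± 0.039 (SE, adjusted p = 0.0050) and 0.17 ± 0.039 (SE, adjusted p = 0.0020). DAT B lay close to DAT A and C in both genes, and without it the values were -0.25 and 0.26 for Psmd2 and -0.16 and 0.15 for Psmd1. With library size alone and with the length offset, Psmd2 kept its call in DAT at 0.12 and 0.12, and Psmd1 lost it at 0.022 and 0.020.

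Psmd13, a lid subunit, had 82.3, 77.8 and 76.2 CPM in CTR, 86.9, 80.1 and 79.7 in CX3 and 82.6, 115 and 89.4 in DAT. DAT B was the highest of the 9 libraries, and the log2 fold change of DAT was 0.28 ± 0.094 (SE, adjusted p = 0.020) with it and 0.12 ± 0.049 (SE, adjusted p = 0.038) without it, and the call was lost without CTR B or CTR C. Psmd6, also of the lid, had 80.6, 83.8 and 81.3 CPM in CTR, 84.4, 88.2 and 84.9 in CX3 and 69.3, 82.5 and 69.03 in DAT and fell, with a log2 fold change of -0.16 ± 0.062 (SE, adjusted p = 0.043), or -0.25 ± 0.042 (SE, adjusted p = 1.5e-05) without DAT B, which lay within the CTR range. The call of Psmd6 was lost when CTR B, CTR C, CX3 B, DAT A or DAT C was left out. Psmd8 had 101, 99.1 and 93.3 CPM in CTR, 108, 104 and 100.4 in CX3 and 92.1, 115 and 94.4 in DAT and was not called against CTR, with 0.090 (adjusted p = 0.37) in CX3 and 0.036 (adjusted p = 0.69) in DAT. The ubiquitin receptor Psmd4, the deubiquitinase Psmd14 and the lid subunits Psmd7 and Psmd12 were not called against CTR in the 9 libraries, with log2 fold changes between -0.060 and 0.022 in CX3 and between -0.023 and 0.11 in DAT. Without DAT B, Psmd14 was called lower in DAT at -0.14.

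The assembly chaperones help the particles to form and are not part of the finished enzyme. Psmd5 holds the ATPase ring during 19S assembly and had 63.8, 63.8 and 60.4 CPM in CTR, 68.5, 68.2 and 68.9 in CX3 and 68.4, 72.8 and 68.7 in DAT, with CX3 and DAT above CTR in every library. It was called in both comparisons, by 0.13 ± 0.045 (SE, adjusted p = 0.046) and 0.16 ± 0.046 (SE, adjusted p = 0.0091), but in DAT library size alone brought it to 0.010 and the length offset to -0.027, neither of them called, and the DAT call was lost without CTR C. Psmd10 (gankyrin) had 25.1, 26.2 and 24.4 CPM in CTR, 27.3, 26.97 and 26.5 in CX3 and 22.2, 28.4 and 22.2 in DAT. Psmd9 had 28.5, 28.8 and 27.2 CPM in CTR, 29.2, 27.3 and 26.1 in CX3 and 26.7, 35.01 and 29.01 in DAT. Neither was called against CTR in the 9 libraries, and Psmd10 was lower in DAT without DAT B, by a log2 fold change of -0.19 (adjusted p = 0.0086). Of the 20S chaperones, Psmg2 had 18.9, 17.99 and 17.7 CPM in CTR, 20.4, 19.8 and 18.3 in CX3 and 15.1, 18.3 and 13.3 in DAT and fell in DAT, with a log2 fold change of -0.23 ± 0.092 (SE, adjusted p = 0.040), or -0.34 ± 0.078 (SE, adjusted p = 4.6e-04) without DAT B. The call of Psmg2 was lost when CTR A, CTR B, CX3 B, DAT A or DAT C was left out. Psmg1 had 16.7, 16.5 and 16.1 CPM in CTR, 14.6, 15.9 and 13.2 in CX3 and 14.2, 16.5 and 13.6 in DAT. Psmg3 had 3.94, 4.04 and 3.73 CPM in CTR, 4.70, 3.87 and 3.91 in CX3 and 2.85, 3.92 and 3.12 in DAT. Psmg4 had 6.995, 7.39 and 7.80 CPM in CTR, 8.80, 7.68 and 8.12 in CX3 and 6.12, 6.54 and 6.67 in DAT. Only Psmg4 had its DAT libraries all below CTR. Their log2 fold changes in DAT of -0.16 (adjusted p = 0.11), -0.27 (adjusted p = 0.11) and -0.21 (adjusted p = 0.071) did not pass the threshold in the 9 libraries, and Psmg1 and Psmg3 passed without DAT B. Psmg2, Psmg3 and Psmg4 were higher in CX3 than in DAT, by 0.33 (adjusted p = 0.0056), 0.36 (adjusted p = 0.036) and 0.36 (adjusted p = 0.0038), and the call of Psmg3 was lost when CX3 A, DAT A or DAT C was left out. The call of Psmg4 was lost with the length offset, which brought its difference between CX3 and DAT to 0.048. With that offset, Psmg4 stood at 0.081 in DAT against CTR and was not called.

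Partners of the proteasome outside the naming rule were followed as a list. The list of 16 further subunits and partners, of which 15 were tested, holds the ubiquitin receptor Adrm1, deubiquitinases, ubiquitin ligases of the proteasome and shuttle proteins. In CX3 none rose and 4 fell, with a median of -0.046, and in DAT 10 rose and 2 fell, with a median of 0.24. All genes tested stood at 14.0% higher and 16.5% lower in CX3 and at 32.0% and 27.9% in DAT. Without DAT B, 3 genes of the list were called higher and 6 lower in CX3, and 10 higher and 3 lower in DAT, with medians of -0.039 and 0.17. In that fit, all genes stood at 19.4% higher and 20.2% lower in CX3 and at 31.5% and 30.2% in DAT. With library size alone, 2 rose and 3 fell in CX3, and 6 rose and 4 fell in DAT. That scaling called 3958 of 20892 genes higher and 2766 lower in CX3, and 4890 and 8045 in DAT. The shuttle Ubqln2 had 119, 128 and 125 CPM in CTR, 99.2, 99.96 and 97.3 in CX3 and 239, 221 and 229 in DAT. It fell in CX3, with a log2 fold change of -0.33 ± 0.046 (SE, adjusted p = 1.1e-04) and rose in DAT by 0.89 ± 0.046 (SE, adjusted p = 1.1e-09). Ubqln1 and Rad23b, which also carry ubiquitinated proteins to the 19S particle, took the same directions, with -0.21 (adjusted p = 0.0013) and 0.35 (adjusted p = 3.8e-06) and with -0.27 (adjusted p = 2.5e-04) and 0.27 (adjusted p = 6.7e-05). Adrm1 was 0.003 (adjusted p = 0.98) in CX3 and rose in DAT by 0.46 ± 0.067 (SE, adjusted p = 4.1e-05).

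Upstream of the proteasome, 3 of 8 genes of ubiquitin activation and unfolding fell and 1 rose in CX3, and 5 rose and 1 fell in DAT. These counts were the same without DAT B. In that fit, 19.4% and 20.2% of all genes rose and fell in CX3, and 31.5% and 30.2% in DAT. With library size alone, 3 fell and 1 rose in CX3, and 4 rose and 2 fell in DAT. That scaling called 3958 of 20892 genes higher and 2766 lower in CX3, and 4890 and 8045 in DAT. Among all genes tested, 14.0% rose and 16.5% fell in CX3, and 32.0% rose and 27.9% fell in DAT. Uba1, the main ubiquitin-activating enzyme, had 337, 336 and 347 CPM in CTR, 215, 221 and 218 in CX3 and 488, 455 and 474 in DAT. Its log2 fold change was -0.64 ± 0.040 (SE, adjusted p = 4.3e-08) in CX3 and 0.47 ± 0.040 (SE, adjusted p = 1.6e-07) in DAT. Vcp, the unfoldase p97, moved by -0.42 (adjusted p = 1.4e-06) and 0.37 (adjusted p = 8.9e-07), and its cofactor Nploc4 rose in both, by 0.15 (adjusted p = 0.024) and 0.46 (adjusted p = 1.3e-06), its call in CX3 being lost with the forward strand and glmTreat and when CTR A, CTR B, CX3 A or CX3 B was left out. Uba6, a second activating enzyme, fell in both, with a log2 fold change of -0.30 (adjusted p = 0.0033) and -0.42 (adjusted p = 9.2e-05). Of the ubiquitin genes, Ubb fell in CX3, with a log2 fold change of -0.34 (adjusted p = 0.0014). In DAT, Rps27a, which also encodes a ribosomal protein, fell, with a log2 fold change of -0.27 (adjusted p = 0.040), with DAT B above every CTR library and DAT A and C below. Without DAT B it was -0.47 (adjusted p = 3.4e-10), and the call was lost when any CTR library, CX3 B, DAT A or DAT C was left out.

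The list of 7 genes that drive proteasome transcription held opposite changes. Nfe2l1 encodes NRF1, the factor that raises proteasome genes when the proteasome is inhibited, and had 301, 307 and 309.6 CPM in CTR, 326, 330.5 and 333 in CX3 and 486, 465 and 491 in DAT. It rose in DAT by 0.65 ± 0.038 (SE, adjusted p = 3.7e-09) and by less in CX3, 0.11 ± 0.038 (SE, adjusted p = 0.041), where the call was lost under 12 of 20 alternatives, among them the DESeq2 test, the replicate block and each CTR or CX3 library left out. Nfe2l2 encodes NRF2, the regulator of antioxidant genes, and had 64.1, 63.3 and 65.1 CPM in CTR, 37.1, 40.3 and 39.3 in CX3 and 35.98, 37.6 and 35.4 in DAT. It fell in both, with a log2 fold change of -0.72 ± 0.048 (SE, adjusted p = 8.2e-08) and -0.82 ± 0.050 (SE, adjusted p = 5.3e-09). Of their small Maf partners, Maff fell in DAT, with a log2 fold change of -0.77 (adjusted p = 2.5e-04), and Mafk differed between CX3 and DAT, with 0.32 (adjusted p = 0.0011). In all, 2 of the 7 rose and 1 fell in CX3, and 1 rose and 2 fell in DAT. Library size alone gave 1 and 5 in DAT, where it called 4890 of 20892 genes higher and 8045 lower. Without DAT B, 3 were called higher and 2 lower in CX3, beside 19.4% and 20.2% of all genes. In DAT, 2 were then higher and 2 lower, beside 31.5% and 30.2%. The shares of all genes in the fit of 9 libraries were 14.0% higher and 16.5% lower in CX3 and 32.0% and 27.9% in DAT. Neuronal and endothelial marker sums were highest in DAT, as were Psmd3, Uba1, Ubqln2 and Nfe2l1. In CX3 both sums lay above those of CTR, whereas Uba1 and Ubqln2 fell there. The part of these cells in the values was not tested.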

How the data were processed

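Poly(A) RNA of nigral tissue was sequenced in 9 libraries, 3 per group. Per the labels and the study's methods, the kit was stranded and the processing notes name Trimmomatic, STAR, featureCounts and DESeq2, with mm10 as the genome. The authors deposited 1 table per library with raw read counts per GENCODE gene, in the layout of STAR's gene counts, and the column of both strands together was used because each strand held close to equal shares (49.8% to 49.9% of stranded reads were on the reverse strand). Rows that name no gene (unmapped, multimapping, no feature, ambiguous) held 30.5% to 35.9% of reads per library and were left out of totals and tests. No column belonged to another sample.

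Counts were filtered with filterByExpr, scaled by TMM and fitted for all 9 libraries in edgeR 4.0.16 (R 4.3.3) with group as the only term. Calls used edgeR's quasi-likelihood test with Benjamini-Hochberg adjusted p below 0.05 over all 20892 genes tested. The scripts were tested on simulated data. RPKM used the union of a gene's exons. Marker sums and lists were described by counts and medians with no set test. Per-length Psmb8:Psmb5, Psmb9:Psmb6 and Psmb10:Psmb7 ratios were tested by exact two-sided permutation over libraries. DAT B stood apart, and results were repeated without it. Other alternatives were DESeq2 1.42.0 (its test, and its size factors in edgeR), library size alone, no filter beyond 1 count, at least 10 counts, each strand alone, glmTreat at a fold of 1.2, the compared groups only, each library left out, a replicate block, the longest transcript as length and, added after the data were seen, an offset for transcript length. The letters A, B and C are not said to mark a shared animal or day. The same letter correlated across groups between -0.16 and 0.040 over genes in deviations from group means, so the letters were not taken to pair libraries. Named with every library's value were the members highest and lowest in each comparison against CTR within each class, those called in any comparison at a fold of at least 1.2, Psmb5, Psmb6, Psmb7, Psme1, Psme2 and untested members, which makes 31. Other members named for a call were chosen after their values were seen. The members and lists were chosen with earlier results of these data known.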

Additional observations from a re-analysis of the deposited data

How the results depend on the processing

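Leaving out DAT B changed the most calls. With 1 library left out at a time, the members called numbered 3 to 21 in CX3 against CTR and 13 to 32 in DAT against CTR. They numbered 19 to 32 in CX3 against DAT, and each count was highest without DAT B. In the same order, all genes called numbered 4638 to 8588, 11259 to 13389 and 11265 to 13254, also highest without DAT B. The medians of the members' log2 fold changes ran from 0.019 to 0.081, -0.13 to 0.040 and 0.011 to 0.19. Over the same fits, Psma6 (-0.12 to 0.096) and Psmb1 (-0.13 to 0.13) in DAT against CTR and Psmd14 (-0.083 to 0.11) in CX3 against DAT turned sign, and without DAT B they were called lower, lower and higher. CX3 against CTR gave 13 members with no filter, beside 6929 of 44499 genes. It gave 16 with the length offset, which was chosen after seeing the data, beside 7945 of 20892. Its own 2 groups only gave 21, beside 8443 of 20742. With glmTreat at a fold of 1.2 it gave 0. That test called 4 and 9 members in the other comparisons, and 1763, 8228 and 7989 of all genes. Of the pathway lists it called 11 and 27 genes in CX3 against CTR and CX3 against DAT.

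Library size alone moved the median of all genes by 0.043, -0.15 and 0.20 in CX3 against CTR, DAT against CTR and CX3 against DAT, and the share of higher among all calls from 45.9% to 58.9%, 53.4% to 37.8% and 46.8% to 66.7%. The length offset brought the latter 2 to 40.9% and 58.9%. Library size alone called 25 members in DAT against CTR, beside 12935 of all 20892 genes. Its member medians were -0.16 in DAT against CTR and 0.26 in CX3 against DAT, moved as it moved all genes. Sign turns are listed here only for genes called with TMM scaling or with the alternative. Signs turned with library size alone for Psmc2 (-0.14 in DAT against CTR, 0.040 in CX3 against DAT), and in CX3 against DAT for Psmc3 (0.18), Psmd4 (0.025), Psmd5 (0.17) and Psme3 (0.014). With the length offset they turned for Psmc2 (-0.16 and 0.0045), Psmd5 (-0.027 in DAT against CTR, 0.16 in CX3 against DAT) and Psmb6 (-0.12 in CX3 against DAT). The cause was not tested.

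The median RPKM of the members was 32.2 in CTR and 36.2 in CX3 with library size alone, 29.5 and 32.4 with the reverse strand, 29.5 and 32.4 with the forward strand, 32.4 in CTR with the length offset, and 47.0, 48.5 and 48.5 in CTR, CX3 and DAT with the longest transcript. Across single genes and alternatives, 3550 values kept their side of the threshold, 196 gained a call, 200 lost it and 14 reversed. The 3550 include values near 0 that changed sign without a call in either fit, and these are not among the 14. The replicate block gave 6, 16 and 21 members called, against 8, 16 and 24 without it. Of all 20892 genes it called 5805, 12144 and 11955, against 6367, 12520 and 12311. Letters matched best with their own in 1, 1 and 0 of 3 libraries for CTR with CX3, CTR with DAT and CX3 with DAT. With 3 libraries a group, this cannot decide whether a letter marks a shared origin. Depth limits the lowest members, as for Psma8 with -0.67 ± 0.293 (SE, adjusted p = 0.061) in DAT against CTR.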
